A study of Mus musculus with 25 samples.

Results

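The data below follow 10 genes by which Kupffer cells are recognized in mouse liver: Clec4f, Vsig4, Timd4, Cd5l, Marco, Folr2, Cd163, Adgre1, Csf1r and Id3. They were listed by symbol and matched to the Ensembl identifiers of the count files, which hold 41388 genes. All 10 were found, and all 10 were among the 14065 genes that passed a filter on low counts (more than 1 CPM, the count scaled to library size, in at least 2 libraries). RNA sequencing was performed on whole liver from 25 male mice labelled C57B/6J and 20 weeks of age. The mice carried an AAV8 virus holding an empty vector (EV) or NAMPT, the enzyme of the salvage pathway through which hepatocytes rebuild NAD. The chow-fed group was WT EV (n = 3). Western diet (WD) was fed to 6 WT mice with EV and 6 with NAMPT, and to 5 SIRT1 LKO mice with EV and 5 with NAMPT. WT animals were Sirt1 fl/fl littermates without Cre, and LKO animals carried Albumin-cre, which deletes the NAD-dependent deacetylase SIRT1 in hepatocytes. NAMPT was driven by the thyroxine-binding globulin promoter, which is active in hepatocytes, so neither the transgene nor the deletion was directed at macrophages. The design asked how NAMPT acts on the overfed liver with and without hepatocyte SIRT1. The treatment text of the labels names SIRT1 as the insert, whereas every title names NAMPT, and the titles were followed.

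Kupffer cells are the resident macrophages of the liver. They sit in the sinusoids, take up bacteria, particles and aged red cells from the blood, and depend on CSF1R signalling and on cues from endothelial cells, stellate cells and hepatocytes. When resident cells are lost, monocytes enter the liver, become macrophages and acquire the Kupffer cell genes in steps, with Timd4 among the last. Clec4f is held to be the most specific of the 10 genes, whereas Adgre1, Csf1r, Marco and Cd163 are shared with other macrophages and Id3 is made by many cell types. In whole liver, fewer cells of a type and less RNA per cell cannot be told apart.

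Libraries held between 20166175 and 32937326 counts. Sirt1 counts over the whole gene were not lower in the libraries labelled LKO, at 7.16 to 11.1 CPM against 7.62 to 9.53 CPM in the WD WT libraries, so every direction given for them rests on their labels. Nampt ran from 38.3 to 54.1 CPM in WD WT EV and from 46.8 to 77.8 CPM in WD WT NAMPT, and from 46.0 to 75.6 CPM in WD LKO EV and from 53.9 to 126.6 CPM in WD LKO NAMPT. Mitochondrial genes took 4.07% to 12.3% of the counts, with the highest share in WD LKO NAMPT replicate 3. Levels below are TMM-normalized CPM. Fold changes are log2 values with the standard error (SE) of a limma fit over all genes, and a gene was called when its Benjamini-Hochberg adjusted p was 0.05 or less. Whether the mice of a group came from separate cohorts is not given for these libraries, so p-values measure the spread between these animals.

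Scaled by exonic length, the 10 genes covered a wide range of levels in WD WT EV. Cd5l, a secreted survival factor of macrophages, was first with 59.6 ± 12.1 CPM per kilobase (SD, n = 6). Clec4f, a lectin receptor, followed with 36.4 ± 8.92, the transcriptional regulator Id3 with 26.1 ± 8.84, and the complement receptor Vsig4 with 18.4 ± 6.75 CPM per kilobase. Csf1r, the receptor for the growth factors CSF1 and IL-34, stood at 14.6 ± 1.97, and the folate receptor Folr2 at 10.99 ± 3.30 CPM per kilobase. Adgre1, which encodes the F4/80 antigen, reached 8.25 ± 1.14 CPM per kilobase. The phosphatidylserine receptor Timd4, the haptoglobin-haemoglobin receptor Cd163 and the scavenger receptor Marco were lowest, at 3.72 ± 1.47, 2.96 ± 1.41 and 0.92 ± 0.49 CPM per kilobase. Means with their SDs did not overlap between Cd5l and Clec4f, between Adgre1 and Timd4, or between Cd163 and Marco. The other neighbours in this order overlapped.

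Promoter sequence is shown for 3 members that moved together or oppositely across libraries in the results that follow. Cd5l and Marco rose and fell in the same livers, and Cd163 went the other way. Each line gives the 250 bases before the RefSeq start site (GRCm38.p6), from 5′ to 3′ on the strand of the gene. Cd5l lies on the plus strand at chr3:87357631-87357880, Marco on the minus strand at chr1:120505025-120505274, and Cd163 on the plus strand at chr6:124304401-124304650. Capitals mark a core of PU.1, the factor that sets macrophage identity (GAGGAAG or its reverse complement), or a core of RBPJ, the factor of Notch signalling (TGGGAA or its reverse complement).
Cd5l: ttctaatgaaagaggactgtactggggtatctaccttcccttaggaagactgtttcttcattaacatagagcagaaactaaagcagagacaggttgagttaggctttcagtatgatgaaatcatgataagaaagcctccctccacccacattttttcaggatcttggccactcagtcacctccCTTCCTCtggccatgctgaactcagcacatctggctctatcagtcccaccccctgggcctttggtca
Marco: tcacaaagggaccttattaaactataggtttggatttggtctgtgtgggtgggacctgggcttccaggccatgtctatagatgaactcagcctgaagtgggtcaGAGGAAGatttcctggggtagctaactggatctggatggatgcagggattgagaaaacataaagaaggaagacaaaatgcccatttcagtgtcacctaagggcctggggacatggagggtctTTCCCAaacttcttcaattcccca
Cd163: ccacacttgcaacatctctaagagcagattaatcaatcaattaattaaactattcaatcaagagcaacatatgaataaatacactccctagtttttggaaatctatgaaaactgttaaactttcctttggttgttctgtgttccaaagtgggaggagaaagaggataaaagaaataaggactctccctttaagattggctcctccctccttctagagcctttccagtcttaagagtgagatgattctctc
RefSeq windows of 300 bases (250 before the start and 50 after it) were at hand for 8 members, Folr2 with 2 of them. The PU.1 core was in 3 of these 9 windows (Cd5l, Marco and Id3), against 13.6% of 32851 promoters. The RBPJ core was in 2 (Marco and Clec4f), against 25.6% of promoters. The SMAD1/5 core GGCGCC and the E-box CAGCTG, with 11.9% and 16.3% of promoters, were in 0 of the 9. These motifs were sought on both strands, and no 2 matches overlapped. These matches are descriptions of letters in a window.

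**Figure D1:**
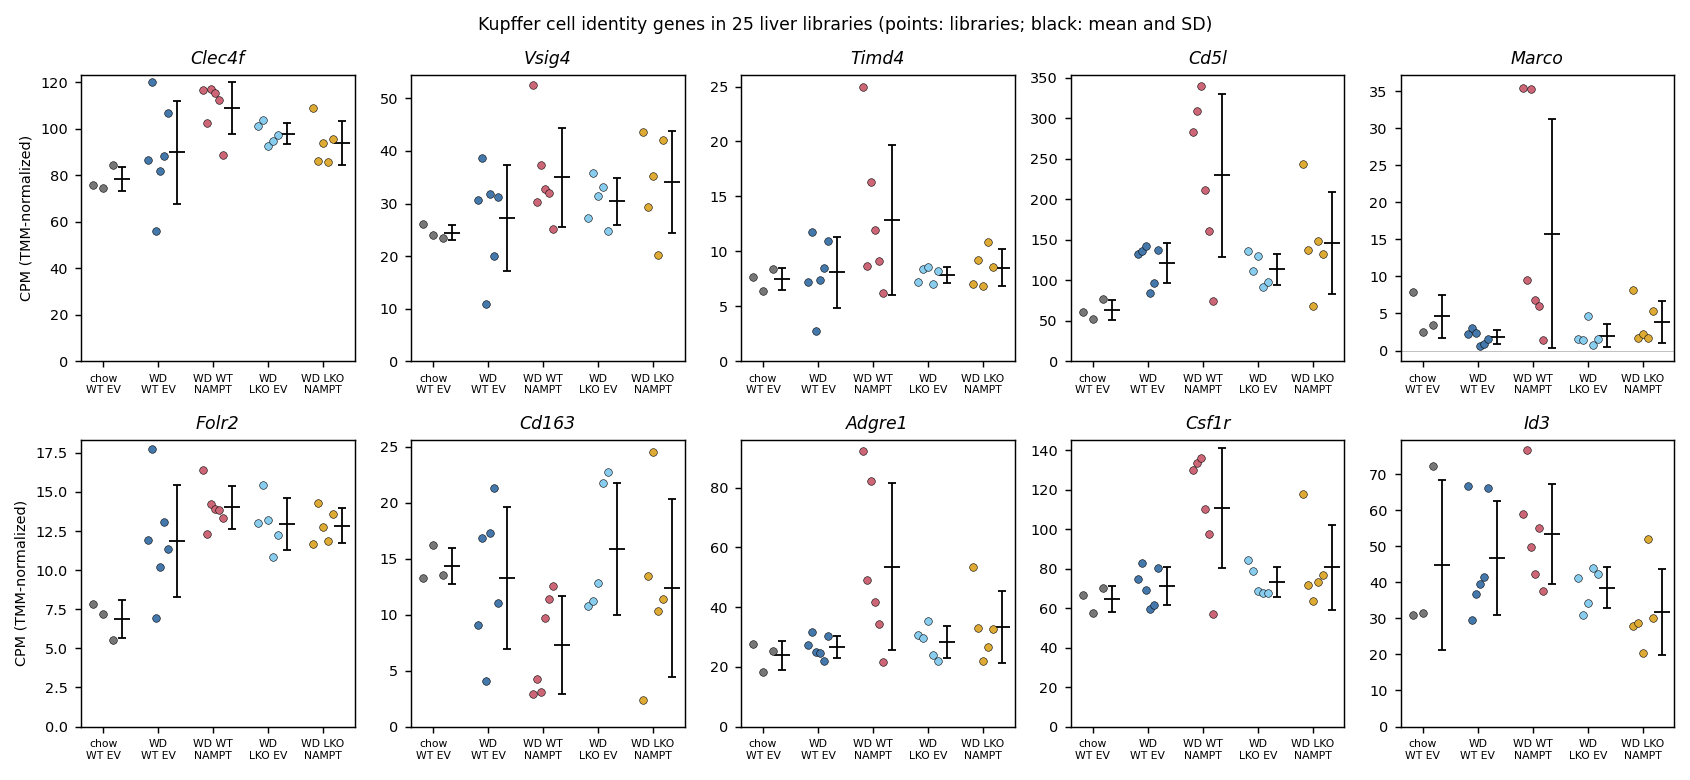
Level of each of the 10 genes in TMM-normalized CPM (vertical axes, linear, starting at or just below 0) in the 5 groups, with 1 point per library and the mean and SD in black. In Cd5l, Marco, Adgre1 and Csf1r, 5 of the 6 WD WT NAMPT points lie above every WD WT EV point.

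NAMPT in WT livers on Western diet was accompanied by higher levels of 4 of the 10 genes, and 6 were not called. The called genes were Csf1r, Adgre1, Cd5l and Marco, all higher. Over all genes, 13.4% were called in this comparison. The median log2 fold change of the 10 genes was 0.50, against 0.0041 over all genes tested. No member separated the 2 groups without overlap, and 0.96% of all genes did.

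Csf1r stood at 59.5, 61.9, 69.0, 74.6, 80.3 and 83.1 CPM in the WD WT EV livers. With NAMPT the values were 56.9, 97.8, 110.2, 129.8, 133.6 and 136.3 CPM. All NAMPT livers but replicate 6 exceeded the highest EV liver, and the log2 fold change was 0.64 ± 0.13 (SE, adjusted p = 0.00878 by limma), or 1.56-fold. The exons of Csf1r share 871 bases with Hmgxb3 on the other strand, which held at most 726 counts per library against at least 1057 for Csf1r.

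Adgre1 ran from 21.8 to 31.5 CPM in WD WT EV, with a median of 26.1. With NAMPT it ran from 21.7 to 92.3 CPM, with a median of 45.4, and the 3 highest livers were replicates 1, 3 and 2. The log2 fold change was 0.91 ± 0.23 (SE, adjusted p = 0.0149 by limma). Cd5l was also lowest in replicate 6, with 83.9 to 142.3 CPM (median 134.0) in EV and 74.5 to 339.4 CPM (median 247) with NAMPT, the highest in replicate 3. Its log2 fold change was also 0.91 ± 0.22 (SE, adjusted p = 0.0149 by limma).

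Marco had the lowest level of the 10 genes in WD WT EV. It was at 0.60, 0.83, 1.57, 2.28, 2.34 and 3.02 CPM in the EV livers and at 1.401, 6.003, 6.82, 9.46, 35.3 and 35.5 CPM in the NAMPT livers. The 2 values near 35 were replicates 1 and 3, and replicate 6 was again inside the EV range. The log2 fold change was 2.79 ± 0.76 (SE, adjusted p = 0.0200 by limma).

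Cd163 had the opposite sign to the other 9 genes. EV livers held 4.05, 9.11, 11.04, 16.9, 17.3 and 21.3 CPM. NAMPT livers held 2.86, 3.07, 4.22, 9.67, 11.4 and 12.6 CPM, and the 3 lowest were replicates 1, 3 and 2. The log2 fold change of -1.08 ± 0.44 (SE) did not pass the threshold (adjusted p = 0.102 by limma). It was called when WD WT EV replicate 4, the lowest EV liver, was left out (-1.36, adjusted p = 0.0239), and also without WD WT NAMPT replicate 5 (-1.42, adjusted p = 0.0417). Without WD WT NAMPT replicate 3 it was -0.61 (adjusted p = 0.427 by limma), and over the 12 fits that left out 1 library it ran from -1.497 to -0.61.

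Clec4f and Timd4, the genes tied most closely to resident cells, did not pass the threshold. Clec4f was at 55.8 to 120.0 CPM (median 87.4) in EV and at 88.6 to 117 CPM (median 114) with NAMPT, and its log2 fold change was 0.31 ± 0.13 (SE, adjusted p = 0.0967 by limma). Timd4 was at 2.78 to 11.8 CPM (median 7.94) in EV and at 6.20 to 24.98 CPM (median 10.5) with NAMPT, and its log2 fold change was 0.66 ± 0.25 (SE, adjusted p = 0.0760 by limma). All NAMPT values of Clec4f lay inside the EV range, and 3 NAMPT livers exceeded the highest EV liver in Timd4. Clec4f was called without WD WT EV replicate 2 (0.49, adjusted p = 0.0400 by limma), and Timd4 without WD WT NAMPT replicate 5 or 6 (0.79 and 0.74, adjusted p = 0.0319 and 0.0349 by limma). Leaving out other libraries took both the other way as well, with Clec4f at 0.17 (adjusted p = 0.219 by limma) and Timd4 at 0.395 without WD WT EV replicate 4. Over all 12 such fits Timd4 ran from 0.395 to 0.97, with adjusted p-values by limma up to 0.267. The log2 fold changes were 0.36 ± 0.23 for Vsig4, 0.25 ± 0.22 for Id3 and 0.18 ± 0.15 for Folr2 (SE), with adjusted p-values by limma of 0.294, 0.464 and 0.436.

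The calls in this comparison moved with 1 liver and with the model. DESeq2 called all 4 genes, and the edgeR quasi-likelihood test called Marco, Adgre1 and Csf1r but not Cd5l (0.92, adjusted p = 0.0636). In the limma fit, WD WT NAMPT replicates 1 to 6 had sample quality weights of 0.51, 0.40, 1.62, 1.85, 0.92 and 0.34. The weight of replicate 6 was the lowest of all 25 libraries. Without sample quality weights 0 of the 4 were called, with log2 fold changes of 0.57 for Csf1r, 0.75 for Cd5l, 0.84 for Adgre1 and 2.71 for Marco (adjusted p 0.0682 to 0.123 by limma), and 192 genes in all were called, against 1890 with weights. Without WD WT NAMPT replicate 3, 0 of the 4 were called (adjusted p 0.0585 to 0.0997, with log2 fold changes of 0.53 for Csf1r, 0.65 for Cd5l, 0.62 for Adgre1 and 2.08 for Marco), and the calls over all genes went from 1890 to 132. Leaving out any other single library gave between 291 and 2846 calls over all genes. With 2 surrogate variables 0 of the 4 were called, and their log2 fold changes were 0.18 for Cd5l, 0.37 for Adgre1, 0.26 for Csf1r and 1.97 for Marco. Marco was also lost without WD WT EV replicate 2 or 6 (3.098 and 2.59) and on only the 2 groups compared (2.80).

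**Figure D2:**
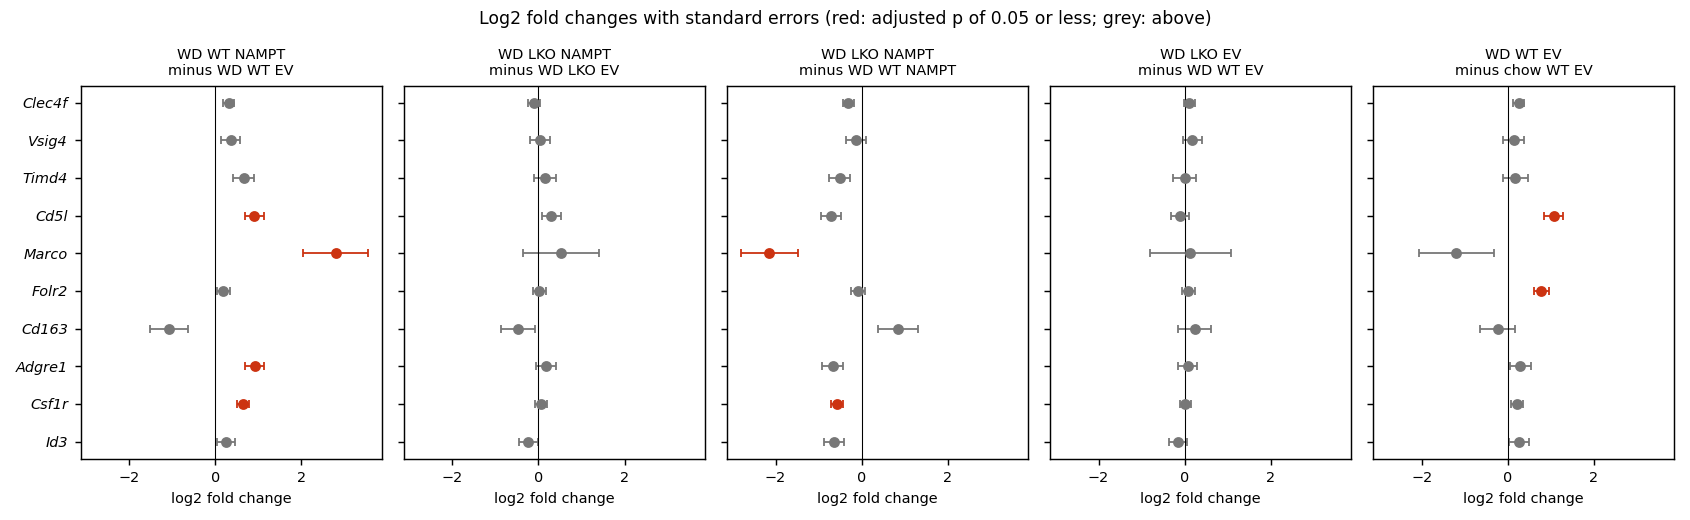
Log2 fold change with its SE (horizontal axes) for each gene in 5 comparisons of 2 groups, red where the adjusted p was 0.05 or less. Red points number 4 for WT NAMPT against WT EV, 0 for LKO NAMPT against LKO EV, 2 for LKO NAMPT against WT NAMPT, 0 for LKO EV against WT EV and 2 for Western diet against chow.

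In the libraries labelled LKO, NAMPT was accompanied by no called change of the 10 genes. Over all genes, 0.00711% were called in this comparison by limma, and 1355 genes had an unadjusted p under 0.05. The 2 groups overlapped in all 10 genes, and 1.15% of all genes did not overlap. The log2 fold changes were 0.52 ± 0.88 for Marco, 0.30 ± 0.23 for Cd5l, 0.17 ± 0.24 for Adgre1 and 0.07 ± 0.14 for Csf1r (SE). Cd163 again had a negative value, -0.47 ± 0.40 (SE). The edgeR quasi-likelihood test and DESeq2 also called 0 members.

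A single liver of this group had the pattern of the WT NAMPT livers. WD LKO NAMPT replicate 1 held 118.1 CPM of Csf1r, 243.9 of Cd5l, 53.5 of Adgre1 and 8.13 of Marco, each the highest of its group, and 2.37 CPM of Cd163, the lowest of all 25 libraries. In its 4 companions Csf1r lay between 63.6 and 77.0 CPM, Cd5l between 68.0 and 147.9, Adgre1 between 22.02 and 33.0, Marco between 1.69 and 5.29 and Cd163 between 10.3 and 24.5. The Clec4f level of replicate 1, 108.9 CPM, was also the highest of its group, while its Timd4 level, 7.02 CPM, was the second lowest of the group.

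The difference between the NAMPT effects in LKO and in WT was tested directly, and 0 of the 10 genes were called (0.00711% of all genes by limma, with 2986 genes at an unadjusted p under 0.05). A negative value means that the NAMPT log2 fold change was lower in the libraries labelled LKO than in WT, and 9 of the 10 genes had one. Cd163 had 0.61 ± 0.60 (SE), from -1.08 in WT and -0.47 in LKO, and Id3 went from 0.25 in WT to -0.23 in LKO. The median was -0.49, against -0.01 over all genes. Csf1r came nearest to the threshold with -0.58 ± 0.19 (SE, adjusted p = 0.106 by limma). It was called when WD WT NAMPT replicate 6 was left out (-0.67, adjusted p = 0.0351) or WD LKO NAMPT replicate 1 was left out (-0.66, adjusted p = 0.0399). The calls over all genes also went up in these fits, from 1 to 638 and 676, and to 366 without WD WT NAMPT replicate 5. The edgeR quasi-likelihood test and DESeq2 called 0 members in this test.

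LKO NAMPT livers were then set against WT NAMPT livers, which are the same 6 libraries as in the first comparison. Marco and Csf1r were called, both lower in the libraries labelled LKO, and 7.96% of all genes were called. Marco held 1.69, 1.71, 2.27, 5.29 and 8.13 CPM in LKO NAMPT, and its log2 fold change was -2.14 ± 0.67 (SE, adjusted p = 0.0491 by limma). Csf1r held 63.6, 71.6, 73.1, 77.0 and 118.1 CPM, and its log2 fold change was -0.56 ± 0.14 (SE, adjusted p = 0.0237 by limma). The groups overlapped in both genes (1.39% of all genes did not overlap), with WT NAMPT replicate 6 low and LKO NAMPT replicate 1 high.

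Cd5l (-0.71 ± 0.24), Adgre1 (-0.67 ± 0.24) and Id3 (-0.64 ± 0.23) did not pass the threshold here (SE, adjusted p 0.0619, 0.0688 and 0.0759 by limma). Clec4f was at -0.31 ± 0.13, Timd4 at -0.51 ± 0.25, Vsig4 at -0.14 ± 0.23, Folr2 at -0.08 ± 0.15 and Cd163 at 0.84 ± 0.46 (log2 fold change, SE). The median of the 10 was -0.54, against -0.0055 over all genes. The edgeR quasi-likelihood test, DESeq2, the fit without sample weights, that without a filter on low counts, that on only the 2 groups and that with surrogate variables each called 0 members. Leaving out WT NAMPT replicate 2 or 3, or LKO NAMPT replicate 2, 3 or 5, also gave 0 and leaving out WT NAMPT replicate 1 gave 1, while leaving out WT NAMPT replicate 5 or 6 or LKO NAMPT replicate 1 gave 4. The calls over all genes went from 1120 to between 0 and 200 in the fits with 0 members and to between 1956 and 2287 in those with 4. Without WT NAMPT replicate 4, Adgre1 was also called (-0.93, adjusted p = 0.0409 by limma), with 653 calls over all genes. Without LKO NAMPT replicate 4, Marco was lost (adjusted p = 0.0502) and Id3 was called (-0.82, adjusted p = 0.0253).

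Between the empty-vector groups on Western diet, the libraries labelled LKO and the WT libraries differed in 0 of the 10 genes (0.00711% of all genes by limma, with 891 genes at an unadjusted p under 0.05, and 0 members by the edgeR quasi-likelihood test and by DESeq2). The groups overlapped in all 10, and 0.59% of all genes did not overlap. Log2 fold changes of the members lay between -0.16 for Id3 and 0.23 for Cd163, with a median of 0.07, against 0.0014 over all genes. Levels in LKO EV were 97.8 ± 4.55 CPM for Clec4f, 113 ± 19.3 for Cd5l, 73.4 ± 7.59 for Csf1r and 28.3 ± 5.43 for Adgre1 (SD, n = 5). In WT EV the same genes were at 89.8 ± 22.04, 121 ± 24.7, 71.4 ± 9.64 and 26.8 ± 3.69 CPM (SD, n = 6). Standard errors of these log2 fold changes ran from 0.12 for Clec4f to 0.95 for Marco, and Marco was thus the least precisely measured.

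Western diet was accompanied by higher Cd5l and Folr2 in WT EV livers, and the other 8 genes were not called. This comparison had 22% of all genes called, so 2 of 10 members was a share close to that of all genes. Cd5l was at 52.4, 60.7 and 76.7 CPM on chow and at 83.9, 96.5, 132.1, 136.0, 137.6 and 142.3 CPM on Western diet, and its log2 fold change was 1.06 ± 0.22 (SE, adjusted p = 0.00144 by limma). It was the one member whose groups did not overlap, which held for 16.1% of all genes. Folr2 was at 5.52, 7.21 and 7.86 CPM on chow and at 6.93, 10.2, 11.4, 11.9, 13.1 and 17.7 CPM on Western diet. Of the Western diet livers, 5 of 6 exceeded the highest chow liver, and replicate 4 did not. The log2 fold change was 0.78 ± 0.18 (SE, adjusted p = 0.00395 by limma).

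Clec4f had a log2 fold change of 0.26 ± 0.13 in the same comparison, Adgre1 0.29 ± 0.25, Csf1r 0.22 ± 0.14, Id3 0.27 ± 0.23, Timd4 0.17 ± 0.29 and Vsig4 0.14 ± 0.24 (SE). Marco was at 2.49, 3.39 and 7.94 CPM on chow, and 5 of the 6 Western diet livers were below the lowest of these. Its log2 fold change was -1.20 ± 0.88 (SE, adjusted p = 0.344 by limma). Cd163 was at -0.24 ± 0.40 (SE). The median over the 10 genes was 0.24, against -0.0047 over all genes. Without WD WT EV replicate 4, in which Clec4f, Vsig4, Timd4, Folr2 and Cd163 were at the lowest level of their group, Clec4f was also called (0.40, adjusted p = 0.00583 by limma), whereas without WD WT EV replicate 2 it was at 0.070 (adjusted p = 0.708 by limma). Without chow replicate 2, 0 members were called, with log2 fold changes of 0.83 for Cd5l and 0.91 for Folr2 (adjusted p = 0.125 and 0.0529 by limma), and the calls over all genes went from 3101 to 843. Without chow replicate 1 Cd5l was lost (0.93, adjusted p = 0.0663 by limma) and 952 genes were called. Cd5l was also lost with the edgeR quasi-likelihood test (0.94, adjusted p = 0.0933) and without sample weights (0.93, adjusted p = 0.0881).

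**Figure D3:**
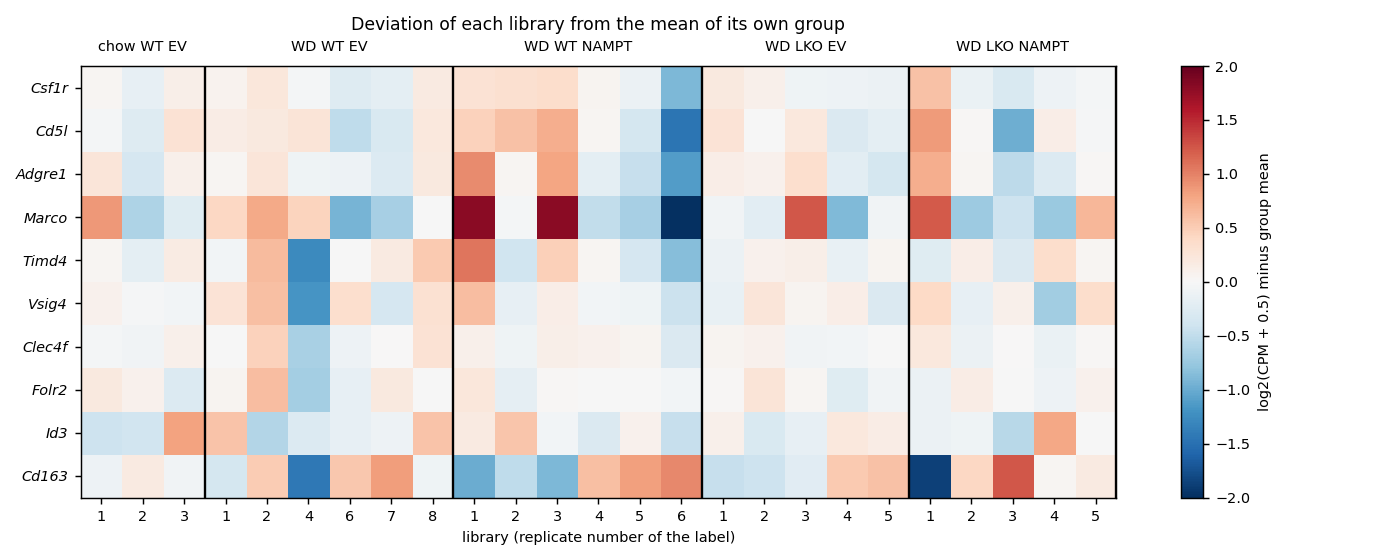
Deviation of log2(CPM + 0.5) from the mean of the library's own group (colour, red above and blue below, full colour at 2 or more) for the 10 genes (rows) in 25 libraries (columns, by group and replicate number). Csf1r, Cd5l, Adgre1 and Marco form a red block in WD WT NAMPT replicates 1 and 3 and in WD LKO NAMPT replicate 1, where Cd163 is blue, and WD WT EV replicate 4 is blue from Timd4 to Folr2 and in Cd163.

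Whether members rose and fell together was asked within groups. Each gene's log2(CPM + 0.5) was taken as a deviation from its group mean, and all 45 pairs were compared over the 25 libraries with 100000 permutations within groups. Of these, 13 pairs passed in Pearson and in Spearman correlation after Benjamini-Hochberg adjustment over the 45, 9 with a positive and 4 with a negative sign. The libraries of a pair share their scaling.

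The first set was Cd5l, Csf1r, Adgre1 and Marco, whose 6 pairs all passed. Cd5l and Csf1r gave r = 0.93 and rho = 0.89 (adjusted permutation p = 0.00015 and 0.00045, n = 25). Their r was 0.89 without the 2 libraries farthest from the median in Cd5l, 0.85 outside WT NAMPT (n = 19) and 0.99 within it (n = 6). Marco and Adgre1 gave r = 0.89 and rho = 0.79 (adjusted permutation p = 0.00015 and 0.000563, n = 25), with r = 0.81 without the 2 farthest and 0.73 outside WT NAMPT. The lowest r of the 6 pairs was 0.76, for Cd5l and Marco, which fell to 0.59 outside WT NAMPT.

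Cd163 opposed each of these 4 genes, and these were the 4 negative pairs. With Cd5l it gave r = -0.80 and rho = -0.85 (adjusted permutation p = 0.00045 for both, n = 25). That r was -0.82 without the 2 farthest libraries, -0.83 outside WT NAMPT and -0.84 within it. With Adgre1, Csf1r and Marco its r was -0.74, -0.72 and -0.68, and -0.68, -0.72 and -0.57 outside WT NAMPT.

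Of the other positive pairs, Clec4f and Vsig4 passed with r = 0.79 and rho = 0.61 (adjusted permutation p = 0.00126 and 0.0274, n = 25), with r = 0.56 without the 2 farthest libraries, 0.797 outside WT NAMPT and 0.75 within it. Clec4f and Timd4 gave r = 0.73 (adjusted permutation p = 0.00615, n = 25) and rho = 0.47 (adjusted permutation p = 0.0945), with r = 0.49 without the 2 farthest libraries. Clec4f with Csf1r (r = 0.52) and Vsig4 with Adgre1 (r = 0.51) were the other 2 positive pairs that passed both tests. For Clec4f and Folr2 an r of 0.67 became 0.08 without the 2 farthest libraries, so that relation rested on those libraries. Clec4f and Cd163 gave r = 0.06, which became -0.49 without the 2 farthest libraries, and was 0.195 outside WT NAMPT and -0.49 within it.

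**Figure D4:**
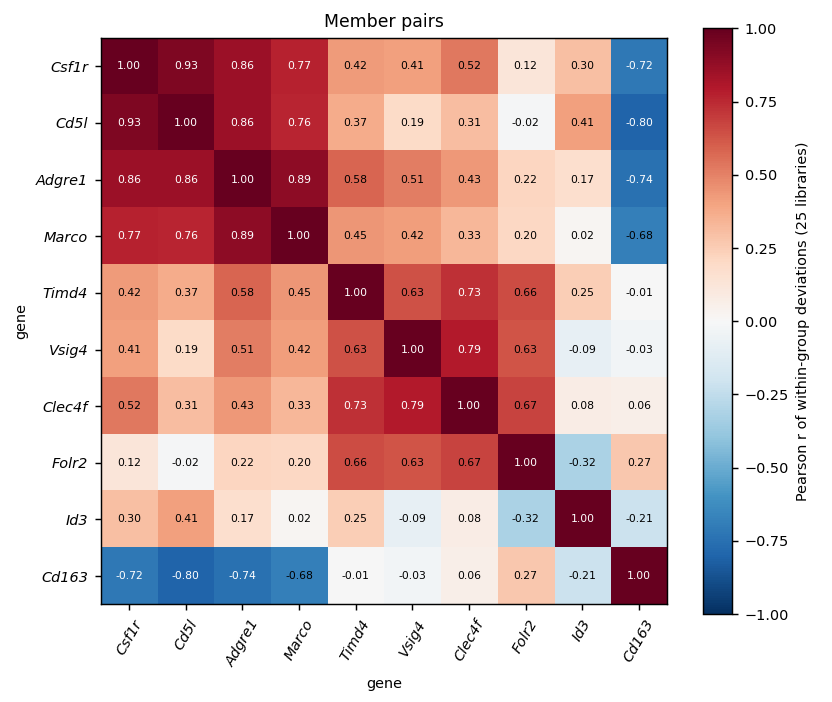
Pearson r of the within-group deviations for every pair of the 10 genes over 25 libraries (colour and printed value). The block of Csf1r, Cd5l, Adgre1 and Marco holds values from 0.76 to 0.93, and the row of Cd163 is negative against all 4.

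Ratios within a library, which do not depend on scaling, were compared for Timd4 to Clec4f, Clec4f to Adgre1 and Clec4f to Csf1r in the 5 comparisons of 2 groups. None of the 15 exact two-sided permutation tests passed (adjusted p 0.677 to 0.917). The largest shift was Clec4f to Adgre1 with NAMPT in WT, where the log2 ratio was 1.72 ± 0.30 in EV and 1.19 ± 0.67 with NAMPT (SD, n = 6 each). The difference was -0.53 with an exact permutation p of 0.119, and the smallest p this design allows is 0.00216. For Timd4 to Clec4f the log2 ratio was -3.56 ± 0.38 in EV and -3.23 ± 0.60 with NAMPT (SD, n = 6 each, exact permutation p = 0.294).

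The 5 other genes with the highest Pearson r to Clec4f in their within-group deviations over 25 libraries were Abhd12 (r = 0.80, rho = 0.57), Gm11437 (r = 0.71, rho = 0.76), Kcna2 (r = 0.70, rho = 0.61), Naip1 (r = 0.69, rho = 0.62) and Icos (r = 0.68, rho = 0.50). These values are a description of the same libraries in which Clec4f spread.

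The further gene lists were chosen with earlier results of these data known, so their counts are descriptions. Their calls were counted in the weighted limma fit with all libraries only. For NAMPT in WT, the 1890 calls of that fit over all genes became 132 without WD WT NAMPT replicate 3. They became 192 without sample weights and 70 with surrogate variables. Of 11 other genes enriched in Kupffer cells, few were called, at shares near those of all genes. In WT livers with NAMPT 2 were called, both higher, against 13.4% of all genes called. They were Spic, the factor of iron-handling macrophages (log2 fold change 1.20 ± 0.27 SE, adjusted p = 0.0121 by limma), and the haem-degrading enzyme Hmox1 (0.79 ± 0.19 SE, adjusted p = 0.0128 by limma). Spic was lower in LKO NAMPT than in WT NAMPT (-0.96 ± 0.27 SE, adjusted p = 0.0336 by limma), the 1 call of the list there, against 7.96% of all genes. On Western diet Il18bp, which encodes the binding protein of interleukin-18, was higher (0.95 ± 0.23 SE) and the complement gene C6 was lower (-0.68 ± 0.22 SE), the 2 calls of the list there, against 22% of all genes. The median of the list was 0.30 for NAMPT in WT.

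Signals and transcription factors that shape the Kupffer cell were also listed. Of 14 genes, 5 were called in WT livers with NAMPT, all higher, against 13.4% of all genes called. They were the growth factor gene Csf1 (0.78 ± 0.19), Tgfb1 (0.88 ± 0.20), Spi1, which encodes PU.1 (0.92 ± 0.21), Irf8 (0.74 ± 0.23) and Zeb2 (0.47 ± 0.12), as log2 fold changes with SE. Spi1, Tgfb1 and Zeb2 were also called between LKO NAMPT and WT NAMPT, all lower (-0.81 ± 0.22, -0.68 ± 0.20 and -0.51 ± 0.13), against 7.96% of all genes. On Western diet 3 of the 14 were called, a share close to the 22% of all genes, and Irf8 (0.86 ± 0.31) and Il34, the other CSF1R ligand gene (0.97 ± 0.34), were higher.

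Genes of macrophages in general, also listed with earlier results of these data known, were called in the weighted limma fit beside the 4 members. All 14 general macrophage genes were called higher with NAMPT in WT livers, against 13.4% of all genes called, with a median log2 fold change of 0.90, among them Cd68 (0.995 ± 0.23 SE) and C1qa (0.72 ± 0.17 SE). Their summed level was 385 to 587 CPM in WD WT EV, 343 to 1350 in WD WT NAMPT, 389 to 623 in WD LKO EV, 397 to 1097 in WD LKO NAMPT and 305 to 422 on chow. In the comparison of LKO NAMPT with WT NAMPT 5 of the 14 were called, all lower, against 7.96% of all genes, and on Western diet 8 were called, all higher, against 22%.

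Of 11 markers of monocytes and recruited macrophages, 6 were higher with NAMPT in WT livers (Itgax, Trem2, Cx3cr1, Chil3, S100a4 and Plac8), against 13.4% of all genes called, with a median log2 fold change of 1.71. Ccr2 and Ly6c2, the first of the list, were not called there. The summed level of the list was 32.0 to 136.8 CPM in WD WT EV, 32.9 to 298.4 in WD WT NAMPT, 41.2 to 112.2 in WD LKO EV, 59.1 to 176.2 in WD LKO NAMPT and 34.6 to 37.4 on chow. The highest library of LKO NAMPT in this sum was replicate 1, which was also high in the 4 members, and the lowest of WT NAMPT was replicate 6.

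Neutrophil markers summed to 2.81 to 9.28 CPM in WD WT EV and 3.83 to 29.1 in WD WT NAMPT, and 2 of the 7 tested (S100a9 and Csf3r) were called higher. In the other groups the sum ran from 3.52 to 7.22 CPM on chow, 3.25 to 9.20 in WD LKO EV and 4.998 to 21.4 in WD LKO NAMPT, and Ly6g, a defining marker, was at 0 counts in all chow and WD WT EV livers and at most 2 counts elsewhere. Of 9 sinusoidal endothelial markers, 4 were lower (Dnase1l3, Clec4g, Fcgr2b and Ptprb) and 5 were not called, among them Lyve1 (log2 fold change 0.51 ± 0.23 SE) and Stab2 (0.02 ± 0.06 SE). Of 7 stellate cell markers 2 were higher (Des and Pdgfrb). These counts stand against 13.4% of all genes called in the comparison. The part of these cells in the member levels was not tested. In the comparisons of NAMPT within LKO and of genotype with empty vector, 0 genes of any list were called.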

How the data were processed

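Poly-A selected liver RNA was sequenced in 25 mice, 1 library each. Per the labels, the authors' processing notes name STAR 2.5.1a, featureCounts 1.4.6-p5 and GRCm38; whether counting used the strand is not given in the sources used here. Deposited per gene were unscaled counts, with CPM and RPKM values that the authors derived from them, and only the counts were used (the largest relative deviation on recomputing both was 5.9e-14). After removal of 4 ribosomal RNA genes and of genes without more than 1 CPM in at least 2 libraries, 14065 genes were scaled by TMM (edgeR 4.0.16) and fitted with voomWithQualityWeights (limma 3.58.1, R 4.3.3), as in the study's methods, here with 1 mean per group and no covariates. Tests were adjusted over all genes by the Benjamini-Hochberg method. Logarithms of CPM used a pseudocount of 0.5. Exact permutation tests and correlations used Python 3.11.15 with scipy 1.17.1. Alternatives were the edgeR quasi-likelihood test, DESeq2 1.42.0, sva 3.50.0 surrogate variables, other scalings and filters, a replicate block and leaving out each library.

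The 10 members and the 13 further gene lists were chosen with earlier results of these data known. In the text stand all members, the called Kupffer-enriched and niche genes (at most 6 per comparison), the first genes of other lists with their counts, and the 5 genes most correlated with Clec4f. The names of called marker genes in other lists were added after their values were seen. Of the listed genes, Tf was not matched. A called gene of the niche list and 1 motif sought in promoters are not reported here. Gene symbols were found for 40254 of 41388 identifiers. The procedure was tested on simulated data. No 2 libraries of a group were copies (smallest chi-square per degree of freedom 13.7). Depth of 20166175 to 32937326 counts left at least 13 counts for every member in every library.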

Additional observations from a re-analysis of the deposited data

Results flagged for a closer look

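Csf1r in WD LKO NAMPT replicate 1, at 118.1 CPM, stood apart from the other 4 libraries of its group, of which the next was at 77.0 CPM. The gap was 0.754 of the range of the group, above the critical value of 0.71 for 5 libraries. Marco in WD LKO EV replicate 3, at 4.69 CPM, stood apart in the same way from the next value of 1.61 CPM, with a gap of 0.771 of the range. In all, 40 groups of member levels were examined, and chance alone gives about 1 such value in 20 groups.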

How the results depend on the processing

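Mice of a group shared replicate numbers with those of other groups, and whether the numbers pair animals is not given in the sources used here. The correlation of same-numbered deviations ran from -0.377 to 0.419. It was not compared with that of other library pairs, so it cannot decide this. With the replicate block 4 members were called for NAMPT in WT (without Cd5l, 0.65, and with Clec4f, 0.49), 2 for Western diet and 2 for LKO NAMPT against WT NAMPT, and 0 in the other comparisons. The calls over all genes were 884 with the block against 1890 without it for NAMPT in WT 412 against 1120 for LKO NAMPT against WT NAMPT, 3842 against 3101 for Western diet and 66 against 1 for the interaction.

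The number of members called for NAMPT in WT was 0 without sample quality weights, 0 with 2 surrogate variables and 6 with library size only, and 0 to 6 when libraries were left out. Over all genes it went from 1890 to 428 with the edgeR quasi-likelihood test, 1194 with DESeq2, 192 without weights, 70 with surrogate variables, 653 on only the groups compared, 524 without a filter, 1808 with upper-quartile factors and 2281 with library size only. With library size only the median log2 fold change of all genes was 0.16, against 0.0041. The split of higher to lower calls was 2010 to 271 with library size only and 1214 to 594 with upper-quartile factors, against 1079 to 811, and between the NAMPT groups these splits were 204 to 636 and 345 to 713, against 588 to 532. For Western diet it was 1053 to 2175 with library size only, against 1414 to 1687. For LKO NAMPT against WT NAMPT 0 members were called with the edgeR quasi-likelihood test, with DESeq2, without weights, without a filter, on only the groups compared and with surrogate variables, and 0 to 4 without 1 library. For Western diet 1 was called with the edgeR quasi-likelihood test and without weights, and 0 to 3 without 1 library. For the interaction it was 0 to 1 without 1 library. Over all genes, leaving out 1 library gave 132 to 2846 calls for NAMPT in WT, 0 to 2287 for LKO NAMPT against WT NAMPT, 843 to 3171 for Western diet and 1 to 676 for the interaction. The cause was not tested.

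Values that changed sign were all of uncalled genes. With surrogate variables Vsig4 and Timd4 for NAMPT in LKO became -0.17 and -0.022, Timd4 for LKO EV against WT EV 0.12, Folr2 for NAMPT in LKO -0.034, Cd163 and Adgre1 for Western diet 0.31 and -0.011, Csf1r for Western diet -0.053, and the interactions of Cd5l and Cd163 0.086 and -0.15. With the replicate block Timd4, Marco, Adgre1 and Csf1r for LKO EV against WT EV became 0.23, -0.16, -0.017 and -0.055, Folr2 for NAMPT in LKO -0.030 and the interaction of Cd163 -0.034. Timd4 for LKO EV against WT EV was 0.061 without weights, 0.017 with library size only and 0.047 without a filter. Folr2 for NAMPT in LKO was -0.013 with the edgeR quasi-likelihood test, -0.021 with DESeq2 and -0.00497 with upper-quartile factors.

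Leaving out 1 library turned these signs. For LKO EV against WT EV the ranges were -0.036 to 0.29 for Clec4f, -0.067 to 0.45 for Vsig4, -0.27 to 0.31 for Timd4, -0.44 to 0.44 for Marco, -0.073 to 0.33 for Folr2, -0.052 to 0.49 for Cd163, -0.064 to 0.17 for Adgre1 and -0.026 to 0.091 for Csf1r. For Western diet they were -0.14 to 0.38 for Vsig4, -0.14 to 0.43 for Timd4, -0.50 to 0.043 for Cd163 and -0.20 to 0.47 for Id3. For NAMPT in LKO they were -0.085 to 0.17 for Vsig4, -0.066 to 0.087 for Folr2 and -0.012 to 0.13 for Csf1r. The log2 ratio of Clec4f to Adgre1 ran from -0.022 to 0.20 for genotype and from -0.16 to 0.12 for diet, and that of Clec4f to Csf1r from -0.00638 to 0.16 and from -0.017 to 0.15. All mean levels of the members stayed within the spread between replicates under the other scalings. Depth limits Marco most, with 13 counts in its lowest library.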

Other observations

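The remaining lists of cell types held few called genes. In WT livers with NAMPT, 0 of 3 tested B cell markers, 0 of 4 T and NK cell markers and 0 of 5 cholangiocyte markers were called. The count was also 0 of 5 hepatocyte markers, 0 of 3 erythroid markers and 0 of 6 proliferation genes. Over all genes 13.4% were called there, so a count of 0 in lists this short says little. The proliferation genes had a median log2 fold change of 0.86 there, all 6 positive, and their summed level ran from 9.10 to 136.7 CPM with NAMPT and from 7.81 to 34.0 CPM with EV. Between LKO NAMPT and WT NAMPT, 7.96% of all genes were called. The cholangiocyte gene Sox9 (1 of 5 tested, log2 fold change -1.45 ± 0.38 SE) and the stellate cell gene Pdgfrb (1 of 7, -0.61 ± 0.14 SE) were called lower. The neutrophil gene Csf3r (1 of 7, -1.31 ± 0.31 SE) was also lower, and the erythroid gene Hbb-bs (1 of 3, 1.35 ± 0.34 SE) was called higher. In that comparison 0 of the 11 recruited macrophage markers and 0 of the 9 sinusoidal endothelial markers were called. The recruited macrophage markers had a median log2 fold change of -1.19, with 1 of 11 positive. The endothelial markers had a median of 0.10, with 7 of 9 positive. On Western diet 22% of all genes were called. The hepatocyte genes Cps1 (-1.22 ± 0.25 SE) and Fgb (-0.35 ± 0.13 SE), 2 of 5 tested, and the B cell gene Cd79b (-0.79 ± 0.28 SE), 1 of 3, were lower. Nkg7 (3.36 ± 0.87 SE, 1 of 4 T and NK cell markers) and Ly6c2 (1.45 ± 0.53 SE, 1 of 11 recruited macrophage markers) were higher. Lyve1 (1.13 ± 0.30 SE, 1 of 9 endothelial markers) and Lrat (0.54 ± 0.11 SE, 1 of 7 stellate cell markers) were also higher. The endothelial genes Kdr and Ptprb, 2 of the 9, were lower on Western diet by -0.20 ± 0.07 and -0.22 ± 0.08 (SE).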
